A study of Mus musculus with 18 samples.

Results

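The Ms4a cluster is a run of related genes on mouse chromosome 19, and 7 genes of this stretch are described here: Ms4a1, Ms4a4c, Ms4a6b, Ms4a6c, Gm8369, Mpeg1 and Fam111a. They were picked by symbol out of the 23420 genes listed in the data, as the Ms4a genes and their neighbours that stood out in the comparison of the genotypes after CpG. That comparison, and the CpG responses of each genotype that contain the same libraries, are therefore given as values with no test. The tests are on measures the choice did not rest on: the CpG response averaged over both genotypes, the response to CL097 in separate libraries, and the difference between the genotypes without stimulation.

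MS4A proteins cross the membrane several times and are found mostly on blood cells. Ms4a1 encodes CD20, the B cell surface protein that therapeutic anti-CD20 antibodies bind, while Ms4a4c, Ms4a6b and Ms4a6c are less studied relatives. Mpeg1 encodes perforin-2, a pore-forming protein of phagocytes and other immune cells that acts on engulfed bacteria. Fam111a encodes a protease that associates with the DNA replication machinery and restricts some viruses, and Gm8369 is a predicted protein-coding gene. TLR7 and TLR9 are endosomal receptors for RNA and DNA, and both signal through an intracellular TIR domain.

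Transcripts were measured by RNA-seq in splenic B cells of MRL/lpr mice aged 5 to 7 weeks, a lupus-prone strain with a defective Fas gene, after 4 h of culture. The cells were enriched with beads that removed cells bearing CD43, CD4, CD8, CD11b, CD11c or Gr-1. There were 18 libraries, 3 in each of 6 groups. The mice of the first arm were all female and Tlr7-/-, and the study's methods give their age as 5 weeks, against 5 to 7 weeks for the males of the second arm. Its control cells were titled Tlr9+/- Tlr7-/- and are called Tlr9het, although the treatment protocol writes Tlr9-/- Tlr7-/- for them. Its other genotype, Tlr997 Tlr7-/-, carries the TIR domain of TLR7 on TLR9, made by editing the Tlr9 locus itself, and is called Tlr997. Cells of both genotypes were cultured with the TLR9 agonist CpG at 10 µg/ml or without it. In the second arm the mice were male and Tlr779 Tlr9-/-, with the TIR domain of TLR9 on TLR7, and their cells were left unstimulated or given the TLR7 agonist CL097 at 5 µg/ml. Sex, genotype and agonist changed together between the arms, so no test was made across them.

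The values were log2 CPM (CPM is a count scaled to a common library total, here as normalized by the authors), and no counts were used here, so the depth of each library is unknown. Replicates correlated across genes with r from 0.946 to 0.990. The targeted receptor Tlr7 was at 6.88 ± 0.40 log2 CPM in unstimulated Tlr779 cells, 3.15 ± 0.42 in those of Tlr9het and 4.96 ± 0.20 in those of Tlr997 (SD, n = 3 for each group), where reads of the TLR7 TIR domain in the edited Tlr9 locus can be counted as Tlr7. Tlr9 stood between 6.93 and 8.08 log2 CPM in every library and did not set apart those labelled Tlr9-/-. As a check of the cell type, all 9 B cell markers measured (Cd79a, Cd79b and others) averaged over 0 log2 CPM in every group. Their summed level was 5504 to 7334 CPM in unstimulated and 1671 to 3044 CPM in stimulated libraries, so the markers that define the cells were lower in every stimulated library. Macrophage and monocyte markers summed to 179 to 650 CPM and T cell markers to 4.12 to 38.4 CPM over the 18 libraries. In bulk RNA, fewer cells of a type and less RNA per cell cannot be told apart.

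In the RefSeq annotation of GRCm38, the 5 genes of the Ms4a cluster lie close together. Ms4a1 spans chr19:11249679-11266149 on the minus strand. Ms4a4c (chr19:11404717-11427246), Ms4a6c (chr19:11469353-11487182), Gm8369 (chr19:11488955-11512577) and Ms4a6b (chr19:11518559-11530403) follow on the plus strand. Mpeg1 (chr19:12460770-12465285) and Fam111a (chr19:12573510-12589769) lie at the far end, 1211 kb and 1324 kb above the lower end of Ms4a1. Between the outermost ends RefSeq places 81 entries, 46 of them protein-coding, and 43 of the 81 were listed in the data. Of these 43, 19 were olfactory receptor genes, none of which had enough signal to be tested.

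Promoter windows, from 250 bases before to 50 bases after a transcript start, were held for 6 of the 7 genes in the RefSeq table (build GRCm38.p6), all but Ms4a1. The 4 windows below are shown because they fall into 2 pairs of related sequence that cross the order of the genes on the chromosome, and because the members of each pair differed in their responses. Capitals mark the longest run of bases that the pair shares without a mismatch, which is 48 bases for Ms4a6c and Ms4a6b and 37 bases for Ms4a4c and Gm8369. Every other pair among the 6 windows shared a run of at most 10 bases. All are on the plus strand, at chr19:11469118-11469417 for Ms4a6c, chr19:11518309-11518608 for Ms4a6b, chr19:11407411-11407710 for Ms4a4c and chr19:11491788-11492087 for Gm8369.
Ms4a6c: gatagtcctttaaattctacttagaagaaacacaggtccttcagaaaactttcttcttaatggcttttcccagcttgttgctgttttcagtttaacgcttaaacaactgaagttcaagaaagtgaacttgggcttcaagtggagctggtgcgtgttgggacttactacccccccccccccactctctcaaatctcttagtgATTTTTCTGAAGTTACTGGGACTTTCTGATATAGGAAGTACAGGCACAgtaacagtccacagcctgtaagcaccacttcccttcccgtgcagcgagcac
Ms4a6b: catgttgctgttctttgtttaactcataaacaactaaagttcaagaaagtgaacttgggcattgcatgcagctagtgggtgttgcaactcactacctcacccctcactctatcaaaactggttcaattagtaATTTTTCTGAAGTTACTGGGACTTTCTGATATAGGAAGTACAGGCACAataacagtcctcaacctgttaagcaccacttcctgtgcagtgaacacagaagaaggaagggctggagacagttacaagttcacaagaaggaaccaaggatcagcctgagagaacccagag
Ms4a4c: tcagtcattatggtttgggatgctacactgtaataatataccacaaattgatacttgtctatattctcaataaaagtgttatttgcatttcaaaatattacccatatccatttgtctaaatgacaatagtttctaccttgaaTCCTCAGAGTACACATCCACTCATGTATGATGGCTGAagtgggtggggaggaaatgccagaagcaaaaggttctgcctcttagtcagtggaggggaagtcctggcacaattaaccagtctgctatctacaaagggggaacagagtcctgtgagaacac
Gm8369: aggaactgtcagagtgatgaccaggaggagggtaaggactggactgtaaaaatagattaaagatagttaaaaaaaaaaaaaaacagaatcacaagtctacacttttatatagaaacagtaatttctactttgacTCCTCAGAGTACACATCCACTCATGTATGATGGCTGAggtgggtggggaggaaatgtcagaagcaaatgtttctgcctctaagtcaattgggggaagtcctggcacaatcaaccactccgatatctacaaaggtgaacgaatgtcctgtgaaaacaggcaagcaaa

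The windows were searched on both strands for 5 motifs. The letters GAAANNGAA, a spaced repeat of the kind that interferon regulatory factors bind, were found in 2 of the 6 windows, as GAAAGTGAA beginning at position -133 of Ms4a6c and at position -206 of Ms4a6b, and in 8.53% of 32544 mouse promoter windows. A longer form that contains those letters, GAAA and GAAA with 2 bases between, and the composite site GGAA and GAAA with 2 bases between, were in none of the 6 and in 3.45% and 2.73% of all windows. TTCNNNGAA, the letters of the interferon gamma activated site, occurred in the Fam111a window and in 8.33% of all. A loose form of the NF-κB site, GGG and CC with 5 bases between, was in 4 of the 6 (Ms4a4c, Ms4a6c, Gm8369 and Mpeg1) and in 51% of all. These matches describe the letters of the windows only.

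Because the cluster holds related genes, the share of their transcripts that a read of 75 bases could not assign was computed from the GENCODE M21 transcripts. Of the windows of 75 bases in Ms4a4c, 3.72% also occurred in Ms4a4b. The share was 1.25% for Ms4a6c, through Ms4a6b, and 1.11% for Ms4a6b, through Ms4a6c and Ms4a6d. It was 0 for Ms4a1, Gm8369, Mpeg1 and Fam111a against the listed genes. BE692007, a noncoding transcript on the other strand, overlaps 1088 of 2050 exonic bases of Ms4a6c, and a pseudogene, Gm16274, overlaps 592 of 4125 of Fam111a. The library kit keeps strand but the strand setting of the counting is not stated, so reads of such partners cannot be told apart here.

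The levels of the 7 genes were compared with each other per kilobase of the longest annotated coding transcript. In unstimulated Tlr9het cells Ms4a1 was highest, at 8.43 ± 0.09 log2 CPM per kb (SD, n = 3). It was followed by Ms4a4c at 7.34 ± 0.24 and Mpeg1 at 7.17 ± 0.05, whose difference was within the spread of Ms4a4c, and by Fam111a at 6.94 ± 0.09. Gm8369 at 5.40 ± 0.06, Ms4a6c at 5.03 ± 0.19 and Ms4a6b at 4.19 ± 0.10 were the lowest. CpG changed that order: in stimulated Tlr9het cells Fam111a, at 4.45 ± 0.09, stood below Ms4a6c at 5.45 ± 0.12 and Gm8369 at 4.69 ± 0.14. In stimulated Tlr997 cells Ms4a6c, at 6.64 ± 0.11, stood above Fam111a at 5.58 ± 0.06.

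**Figure D1:**
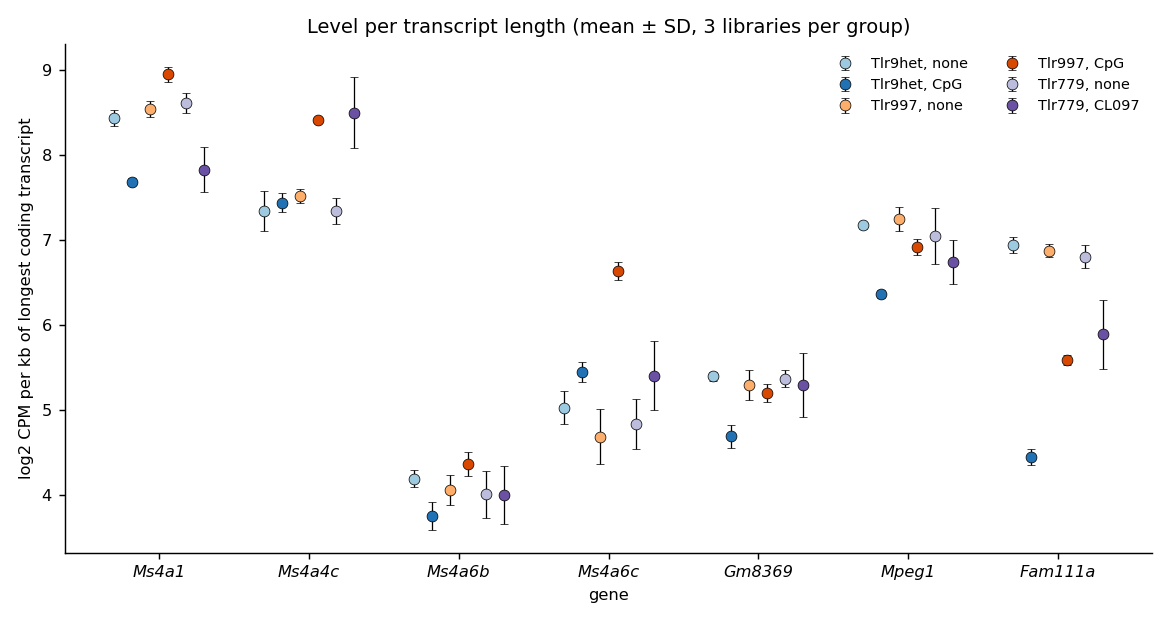
Level of each gene per transcript length, as log2 CPM per kb of its longest coding transcript, with points for group means and bars for the SD of 3 libraries in the 6 groups. Ms4a1 is highest in 5 of the 6 groups, Ms4a4c is highest with CL097, and Ms4a6b is lowest in every group.

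With CpG, every one of the 7 genes was higher in Tlr997 than in Tlr9het cells, and in each the 3 Tlr997 libraries lay above the 3 Tlr9het libraries. This is how they were chosen, and a separation of that kind was present in 14.6% of the 11494 genes tested in this arm. Called by limma's moderated test (adjusted p under 0.05, with a log2 fold change beyond 0.5 in size), 1.26% of these genes were higher in Tlr997, the 7 among them, and nothing is read from that count. The differences were 1.26 log2 units for Ms4a1, 1.19 for Ms4a6c, 1.13 for Fam111a, 0.97 for Ms4a4c, 0.61 for Ms4a6b, 0.56 for Mpeg1 and 0.50 for Gm8369, with standard errors from 0.07 to 0.14. Gm8369 and Mpeg1 were thus the nearest inside the fold limit. Of the uncalled genes of the interval, those with the largest positive difference were Ms4a7 at 0.83 ± 0.42 and Ms4a4b at 0.37 ± 0.32 (log2 difference ± SE), 2 genes of more variable level.

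**Figure D2:**
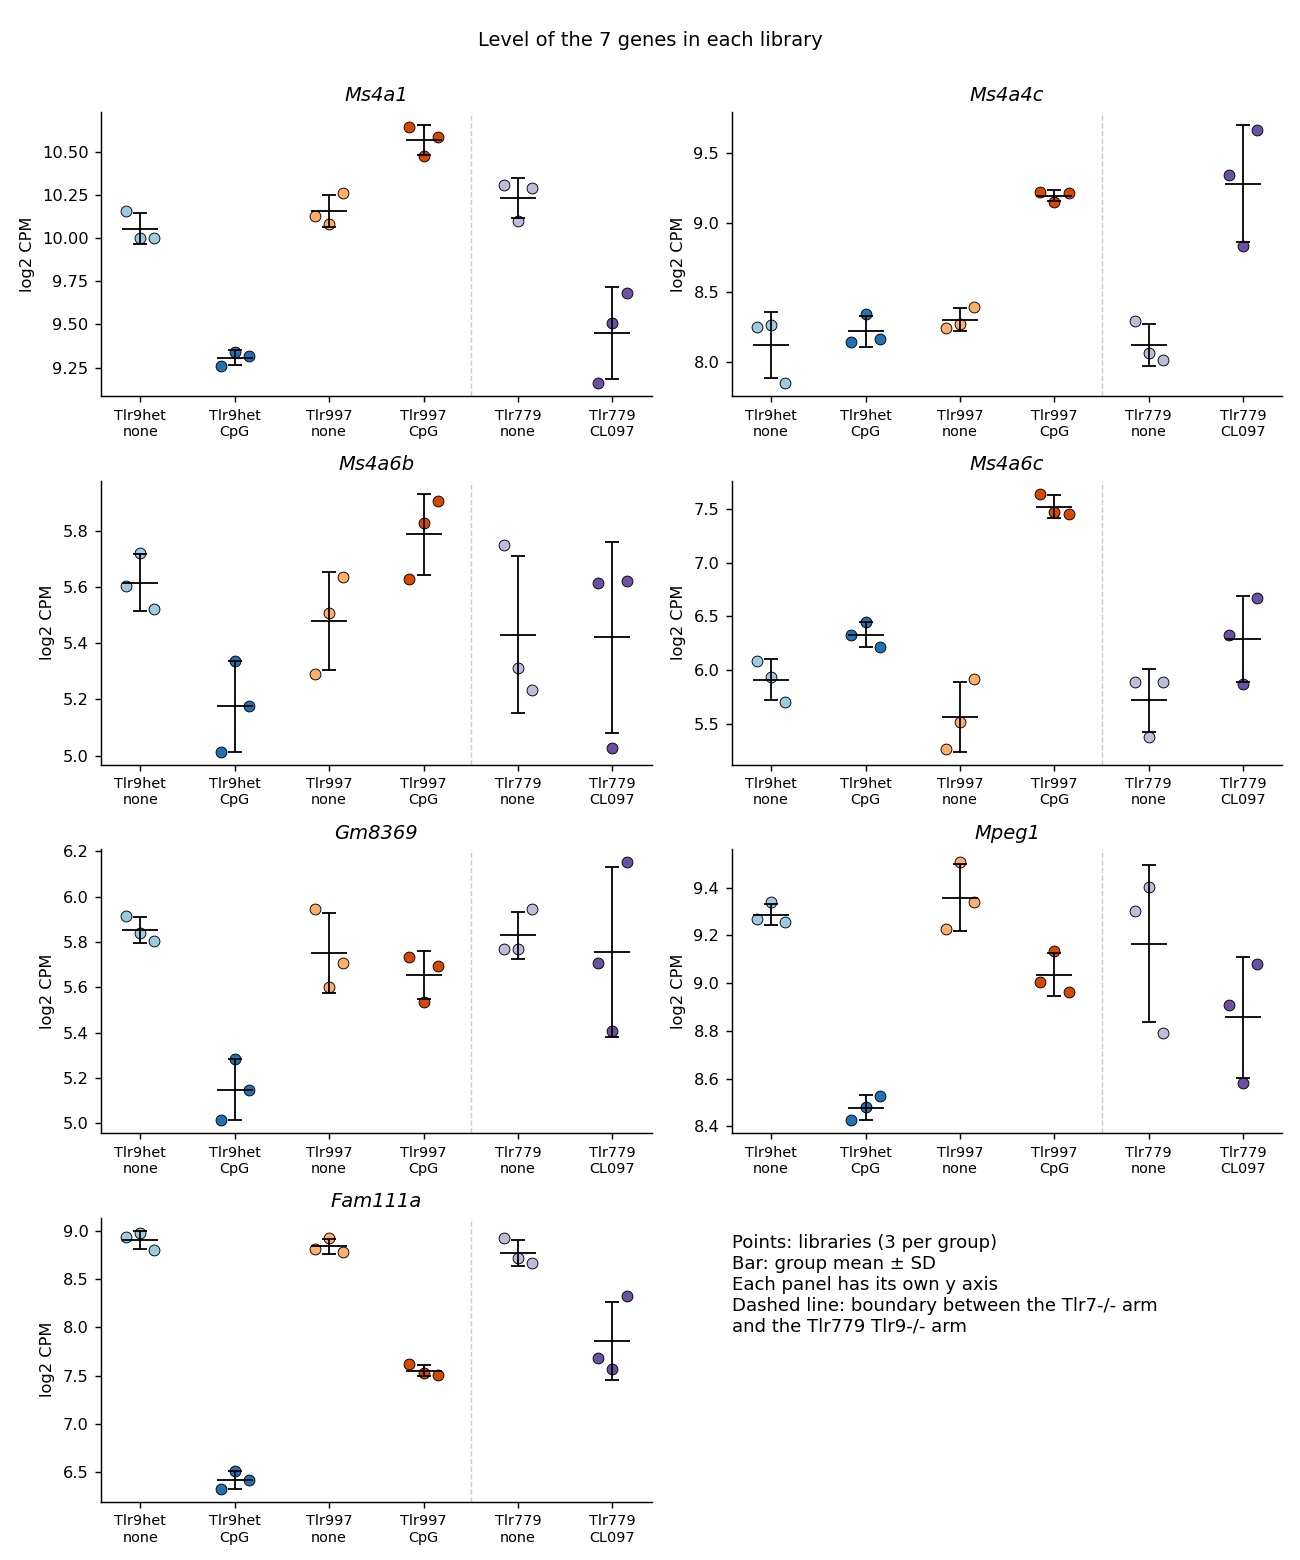
Level of each gene in every library, in log2 CPM, with a panel and y axis for each gene. Points are libraries, horizontal bars the mean of 3 and error bars the SD. In each panel the 3 Tlr997 libraries with CpG stand above the 3 Tlr9het libraries with CpG, while the unstimulated libraries of the 2 genotypes overlap.

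Ms4a1, the CD20 gene, went in opposite directions in the 2 genotypes. In Tlr9het it was at 10.16, 10.00 and 10.00 log2 CPM without and at 9.26, 9.34 and 9.32 with CpG. In Tlr997 it was at 10.13, 10.08 and 10.26 without and at 10.64, 10.47 and 10.59 with CpG. The stimulated libraries lay entirely below the unstimulated in Tlr9het, by 0.75 log2 units, and entirely above them in Tlr997, by 0.41. In the linear scale the group means went from 1065 to 634 CPM in Tlr9het and from 1144 to 1520 CPM in Tlr997. Its level in the Tlr779 cells was 10.31, 10.10 and 10.29 without and 9.16, 9.51 and 9.68 with CL097, again with no overlap and with the stimulated libraries lower. Stimulated Tlr997 was the highest of the 6 groups, the 3 unstimulated groups overlapped with each other, and stimulated Tlr9het and Tlr779 overlapped at the bottom. The B cell marker sum moved with these values in part: it was 1671 to 1759 CPM in stimulated Tlr9het, 2055 to 2609 in stimulated Tlr997 and 2449 to 3044 in stimulated Tlr779, all below the unstimulated libraries, and its part in the Ms4a1 values was not tested.

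The levels of Ms4a4c were close in 4 of the 6 groups. It was at 8.25, 8.27 and 7.85 log2 CPM in unstimulated and 8.15, 8.35 and 8.17 in stimulated Tlr9het, at 8.24, 8.27 and 8.40 in unstimulated Tlr997 and at 8.30, 8.07 and 8.02 in unstimulated Tlr779. These 4 groups overlapped. Above them stood stimulated Tlr997, at 9.22, 9.15 and 9.21, and Tlr779 with CL097, at 9.34, 8.84 and 9.67. The difference between stimulated and unstimulated cells was 0.10 log2 units in Tlr9het, with overlap, against 0.89 in Tlr997 and 1.15 with CL097, both without overlap.

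Ms4a6c had the largest positive difference of the 7 in Tlr997. Its libraries were at 5.27, 5.52 and 5.91 log2 CPM without and 7.64, 7.47 and 7.45 with CpG, a difference of 1.95 log2 units. In Tlr9het the values were 6.09, 5.93 and 5.71 without and 6.33, 6.45 and 6.21 with CpG, a difference of 0.42. The stimulated libraries were higher without overlap in both genotypes. The unstimulated Tlr997 libraries were spread widely, and the lowest of them, replicate 1, had the largest difference to the stimulated library of its number, 2.37, against 1.95 and 1.54 for the others.

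Ms4a6b and Gm8369 are neighbours with lower levels, and with CpG both lay below their unstimulated libraries in Tlr9het, whereas the libraries overlapped in Tlr997. Ms4a6b was at 5.61, 5.72 and 5.52 log2 CPM without and 5.01, 5.34 and 5.18 with CpG in Tlr9het, and at 5.29, 5.51 and 5.64 without and 5.63, 5.83 and 5.91 with CpG in Tlr997. The lowest stimulated Tlr997 library stood just under the highest unstimulated one. For Gm8369 the values were 5.92, 5.84 and 5.80 without and 5.01, 5.29 and 5.15 with CpG in Tlr9het, and 5.94, 5.60 and 5.71 without and 5.73, 5.53 and 5.69 with CpG in Tlr997. The difference with CpG was -0.44 in Tlr9het and 0.31 in Tlr997 for Ms4a6b and -0.70 and -0.10 for Gm8369.

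Mpeg1 and Fam111a were lower with CpG in both genotypes, and less so in Tlr997. Mpeg1 was at 9.27, 9.34 and 9.25 log2 CPM without and 8.43, 8.48 and 8.53 with CpG in Tlr9het, and at 9.23, 9.51 and 9.34 without and 9.01, 9.14 and 8.96 with CpG in Tlr997. Fam111a showed the largest difference of the 7 genes in Tlr9het, from 8.94, 8.98 and 8.80 to 6.33, 6.51 and 6.42, and in Tlr997 it went from 8.82, 8.93 and 8.78 to 7.62, 7.53 and 7.51. None of these pairs of groups overlapped. In linear means Fam111a went from 481 to 85.7 CPM in Tlr9het and from 459 to 188 CPM in Tlr997. Macrophage and monocyte markers, of which all 15 averaged over 0 log2 CPM in both stimulated groups, summed to 251 to 299 CPM in stimulated Tlr9het and to 179 to 375 CPM in stimulated Tlr997, which overlap, and their part in the Mpeg1 values was not tested.

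Of the 7 genes, 5 were lower with CpG without overlap in Tlr9het (38.5% of all tested genes), and 1, Ms4a6c, was higher (41.6% of all). In Tlr997, 3 were higher (37.9% of all) and 2 were lower (33.3% of all). The difference between the CpG responses, Tlr997 minus Tlr9het, was positive for all 7, from 0.48 log2 units for Mpeg1 to 1.53 for Ms4a6c. Its median was 0.79 against 0.01 over all tested genes. The choice of the genes favours such values, since it rested on the stimulated libraries that enter this difference, though not on the unstimulated ones. By the sign of the mean responses alone the difference took 3 forms. For Ms4a1 and Ms4a6b the mean was lower with CpG in Tlr9het and higher in Tlr997. For Ms4a4c and Ms4a6c it was higher with CpG in both, by more in Tlr997, and for Gm8369, Mpeg1 and Fam111a it was lower in both, by less in Tlr997. The libraries overlapped for Ms4a4c in Tlr9het, at 0.10 ± 0.10 log2 units (SE), and for Gm8369 and Ms4a6b in Tlr997, at -0.10 ± 0.10 and 0.31 ± 0.11. The form of these genes is therefore not settled.

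**Figure D3:**
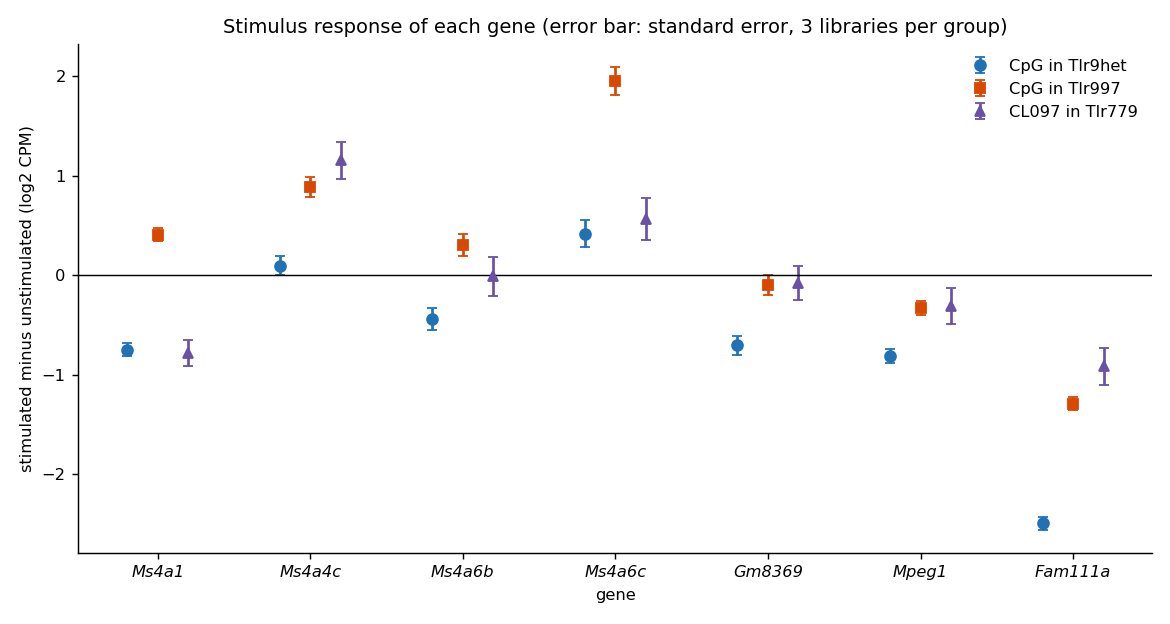
Stimulated minus unstimulated level of each gene in log2 CPM, for CpG in Tlr9het (circles), CpG in Tlr997 (squares) and CL097 in Tlr779 (triangles), with standard errors from the fit to all tested genes. For every gene the square stands above the circle, and the triangle of Ms4a1, at -0.78, stands beside the circle at -0.75.

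The CpG response averaged over the genotypes, whose estimate is orthogonal to their difference but whose standard error is shared with it, passed the test for 3 of the 7 genes. Ms4a6c rose by 1.19 ± 0.10 log2 units (SE; adjusted p = 8.3e-08), 1 of 7 genes against 31.3% of all 11494 called higher. Fam111a fell by 1.89 ± 0.05 (adjusted p = 4.2e-13) and Mpeg1 fell by 0.57 ± 0.05 (adjusted p = 1.4e-07), 2 of 7 against 28.1% of all called lower. These shares do not set the genes apart from the rest. Ms4a4c, at 0.49 ± 0.07 (adjusted p = 1.6e-05), was just under the fold limit, and was called in 6 of the 12 fits that left out 1 library, with values up to 0.53. Gm8369 at -0.40 ± 0.07 (adjusted p = 0.00012) and Ms4a1 at -0.17 ± 0.05 (adjusted p = 0.0046) were also under the fold limit. Ms4a6b was at -0.07 ± 0.08, with an adjusted p of 0.45. At an unadjusted p under 0.05, 6 of the 7 genes passed (80.3% of all genes did). For Ms4a1 the average stands for responses of opposite sign. Over the 7 genes the median was -0.17, against 0.06 for all genes tested.

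CL097 in Tlr779 cells changed 4 of the 7 genes by the same test. Ms4a4c rose by 1.15 ± 0.19 log2 units (SE; adjusted p = 0.0011), and Ms4a6c passed at 0.57 ± 0.21 (adjusted p = 0.049), 2 of 7 against 22.7% of 11082 genes called higher. Ms4a1 fell by 0.78 ± 0.13 (adjusted p = 0.0012) and Fam111a fell by 0.91 ± 0.18 (adjusted p = 0.0031), 2 of 7 against 23.6% of all called lower. The call of Ms4a6c is at the edge of the threshold: its libraries overlapped, at 5.89, 5.38 and 5.89 log2 CPM without and 6.33, 5.87 and 6.67 with CL097. It was lost in 5 of the 6 fits that left out 1 library, with a value of 0.38 without CL097 replicate 3, 0.40 without unstimulated replicate 2, 0.55 without CL097 replicate 1 and 0.65 without unstimulated replicate 1 or 3. With no filter on low values the calls of Ms4a6c and Fam111a were lost at unchanged log2 fold changes, and that of Ms4a6c also without the variance trend or with array quality weights. With 1 block per replicate number, which treats same-numbered samples as pairs, all 4 calls were made again.

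Fam111a was at 8.93, 8.72 and 8.67 log2 CPM without and 7.68, 7.57 and 8.32 with CL097, and the third stimulated library stood nearest to the unstimulated ones. The same library, replicate 3, was the highest of the stimulated libraries for all 7 genes. The other 3 genes had overlapping libraries and did not pass. Mpeg1 was at -0.31, with a 95% interval of the difference from -0.72 to 0.10, Gm8369 at -0.07, from -0.47 to 0.33, and Ms4a6b at -0.01, from -0.46 to 0.44. A fall of 0.4 log2 units lies within all 3 intervals. The macrophage marker sum was 180 to 360 CPM with CL097 and 309 to 650 CPM without.

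Without stimulation none of the 7 genes was called by limma between Tlr997 and Tlr9het, and 0.0174% of the 11494 genes were. That share is 2 genes, neither of them among the 7. All 7 genes had overlapping libraries. The differences, Tlr997 minus Tlr9het, ran from -0.34 ± 0.14 log2 units for Ms4a6c (SE; 95% interval -0.64 to -0.04, adjusted p = 0.42) to 0.18 ± 0.10 for Ms4a4c (interval -0.03 to 0.39, adjusted p = 0.52). At an unadjusted p under 0.05, 1 of the 7 passed (10.8% of all genes did), Ms4a6c, whose unstimulated mean was the lower of the 2 in Tlr997. The intervals of Ms4a1 (-0.04 to 0.25), Mpeg1 (-0.08 to 0.22) and Fam111a (-0.21 to 0.08) all stayed within 0.3 log2 units of 0, below the differences that these genes had with CpG. Their width rests on the spread estimate shared with the comparison on which the genes were chosen.

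Among the other genes of the interval, 10 could be tested. None of them was called by limma between the stimulated genotypes, where 314 of all 11494 tested genes were. At an unadjusted p under 0.05, 1 of the 10 passed (19% of all genes did), Dtx4, a ubiquitin ligase gene that neighbours Mpeg1. Dtx4 was at 6.92, 6.86 and 6.97 log2 CPM in stimulated Tlr9het and at 6.54, 6.62 and 6.61 in stimulated Tlr997, lower in Tlr997 without overlap, by 0.33 log2 units (adjusted p = 0.039), under the fold limit. Its lower end lies 1217 kb above that of Ms4a1, beside Mpeg1 at 1211 kb, which differed the other way. Over these 10 genes the median difference was 0.05, against 0.0005 for all genes. Since the 7 genes were taken out because they were called, a lack of calls among the rest follows in part from the choice. With so few of all genes called, a lack of calls among 10 genes does not set them apart either.

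**Figure D4:**
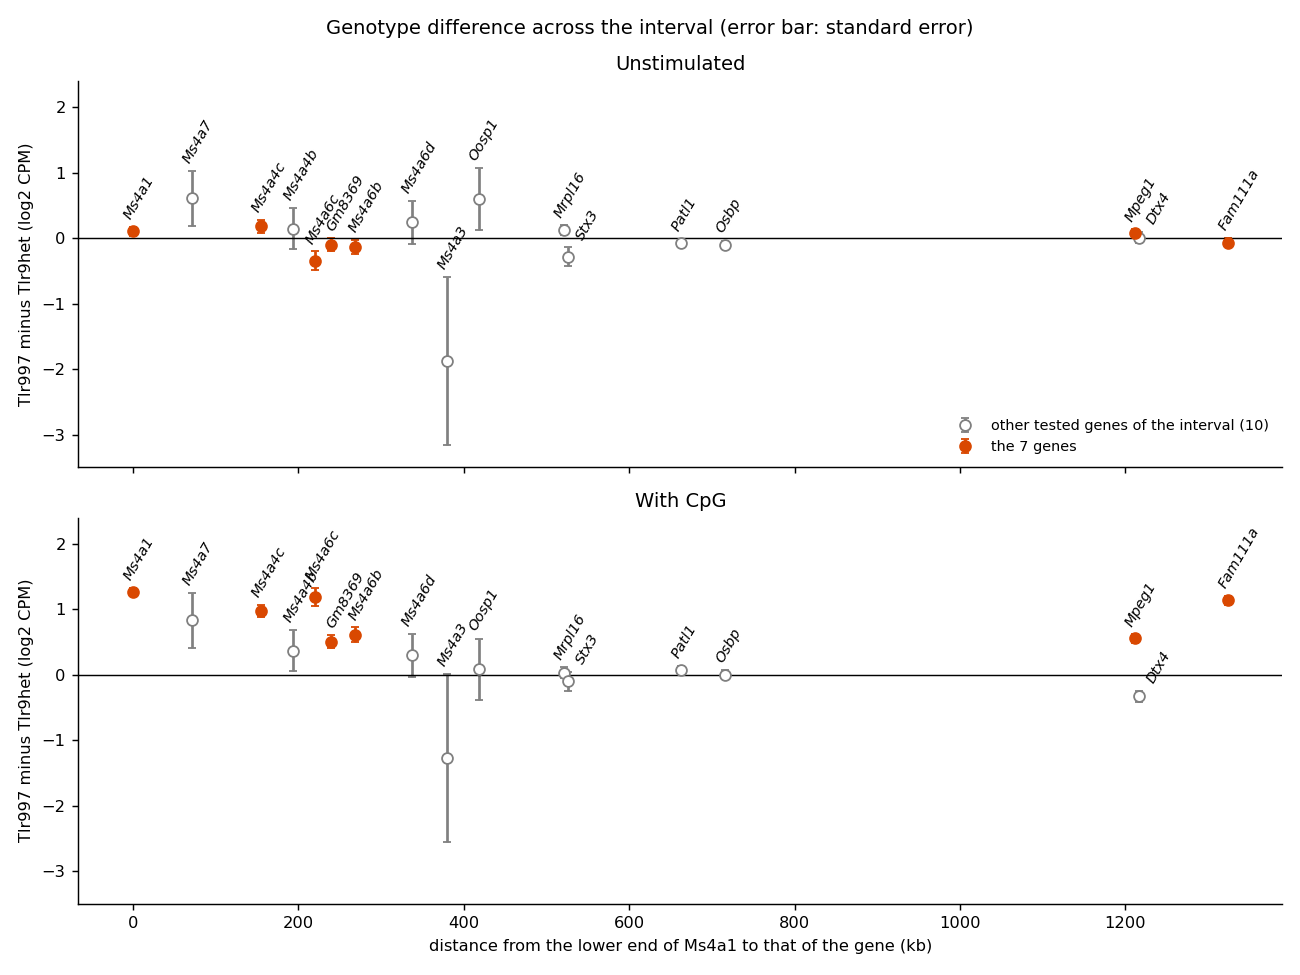
Difference between Tlr997 and Tlr9het in log2 CPM for the 17 tested genes of the interval, against the distance in kb from the lower end of Ms4a1, without stimulation (top) and with CpG (bottom). Filled points are the 7 genes, open points the other 10, and bars standard errors. With CpG the filled points stand between 0.50 and 1.26, while Mrpl16, Stx3, Patl1 and Osbp in the middle of the interval stand between -0.10 and 0.07.

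In the averaged CpG response 6 of the other 10 tested genes of the interval rose and 2 fell, where 31.3% and 28.1% of all genes did, and their median was 0.87 log2 units against 0.06 for all. Mrpl16, a protein of the mitochondrial ribosome, rose by 1.44 ± 0.06 (SE; adjusted p = 3.1e-11), Stx3, a syntaxin of membrane fusion, by 1.16 ± 0.10 (adjusted p = 1.4e-07) and Dtx4 by 0.56 ± 0.06 (adjusted p = 1.1e-06). Osbp, which carries oxysterols and other lipids between membranes, fell by 0.58 ± 0.04 (adjusted p = 2.7e-08), and the low gene Oosp1 fell by 1.06 ± 0.33 (adjusted p = 0.010). Patl1, an mRNA decay factor, was at 0.45 ± 0.04, under the fold limit. With CL097, 9 of these genes could be tested: Mrpl16, Patl1 and Ms4a7 rose, by 0.75, 0.66 and 1.19 log2 units, and Osbp fell by 0.70. Of all genes tested with CL097, 22.7% were called higher and 23.6% lower. The 10 included 4 Ms4a genes, given next.

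The files list 12 further Ms4a symbols, of which 7 stayed under 0 log2 CPM in every library. Ms4a5, Ms4a10 and Ms4a18 were at -5.05, the most frequent value of the files, in all 18 libraries. Of the 4 that could be tested in the first arm, 3 rose in the averaged CpG response (31.3% of all genes did). All 3 were already counted among the interval genes above. Ms4a6d rose by 1.86 ± 0.23 log2 units (SE; adjusted p = 5.5e-06), Ms4a7 by 1.30 ± 0.30 (adjusted p = 0.0012) and Ms4a4b, a gene known from T cells, by 1.24 ± 0.22 (adjusted p = 0.00017). Ms4a3, a gene known from granulocyte and monocyte precursors, was at 0.59 ± 0.91 and reached -4.94 log2 CPM in 1 unstimulated Tlr997 library.

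Ms4a6d was at 0.49, 1.73 and 1.32 log2 CPM without and 2.63, 3.36 and 3.04 with CpG in Tlr9het, and at 1.56, 1.40 and 1.31 without and 3.56, 3.65 and 2.72 with CpG in Tlr997, with no overlap in either. Its responses were 1.83 and 1.89, and their difference was 0.06 ± 0.46 (SE). Ms4a4b was at 3.77 to 4.60 in stimulated Tlr9het and 4.23 to 5.04 in stimulated Tlr997, against 2.74 to 3.80 and 2.80 to 3.56 without CpG. With CpG the T cell marker sum was also higher. It was 8.0 to 17.6 CPM without and 18 to 38.4 CPM with CpG in Tlr9het and 4.66 to 17.8 and 15.9 to 31.1 CPM in Tlr997, with all 9 averaging over 0 log2 CPM in both stimulated groups. The markers did not move alike: mean Cd8a went from 0.37 to 2.55 log2 CPM in Tlr9het and from -0.44 to 2.13 in Tlr997, Cd4 from 0.49 to 0.74 and from 0.25 to 0.14. With CL097 Ms4a4b differed by 1.41 ± 0.57 (SE), not called by limma (adjusted p = 0.062). The T cell sum was then 4.70 to 14.9 CPM without and 4.12 to 15.7 CPM with CL097. The part of T cells in the Ms4a4b values was not tested.

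For comparison, 25 genes of the interferon response were counted by the same rule. The list was chosen with earlier results of these libraries known, so its counts are not independent evidence of its direction. In the averaged CpG response 11 rose (31.3% of all genes did) and 6 fell (28.1% of all). The median was 0.42 log2 units against 0.06 for all genes. Isg15, a ubiquitin-like modifier, and Ifih1, an RNA sensor, rose by 2.13 and 1.46, the largest values of the list. With CL097, 17 rose (22.7% of all genes did) and none fell (23.6% of all), with a median of 1.35 against -0.02. The called genes ran from Isg15 at 2.62 and Mx1, an antiviral GTPase, at 2.35 to Oas1a at 1.09 and Xaf1 at 0.96. Between the stimulated genotypes 8 of the 25 were called higher in Tlr997 (1.26% of all genes were), with a median difference of 0.65 against 0.0005 for all. Of the 7 genes of the chromosome 19 stretch, Ms4a4c rose with CL097 as most of the list did, and Ms4a1 and Fam111a fell. Ms4a6c was also called higher, but its libraries overlapped and its call was at the edge of the threshold.

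To find genes with a like pattern, each gene was centred within each arm and compared over the 18 libraries by the root mean square difference, among 9216 genes with an average over 2 log2 CPM in both arms. Nearest to Ms4a1 were Pde7a, at 0.24 log2 units, Cd36 at 0.26 and Mapk3 at 0.27. Nearest to Ms4a4c were Ifi47 at 0.19, Irgm1 at 0.20 and Rasa4 at 0.21. Ms4a6c had no neighbour closer than Nid1 at 0.31, Cd244 at 0.31 and Hsp90ab1 at 0.34, whereas Ms4a6b had Ftsjd2, Huwe1 and Ccdc167 at 0.18 to 0.19. For Gm8369 these were St3gal6, Ap1s3 and Trim12c, at 0.14 to 0.15, for Mpeg1 Tpra1, Phlpp1 and Ap1s3, at 0.14 to 0.16, and for Fam111a Zfp52, Pkig and Sh3bp2, at 0.19 to 0.25.

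None of the 7 genes had another of the 7 among its 3 nearest. The closest pair within the stretch was Gm8369 and Mpeg1, at 0.23 log2 units, and the next was Ms4a6b and Gm8369, at 0.24. Ms4a4c and Ms4a6c were nearest to each other, at 0.39, and Fam111a was farthest from the rest, at 0.61 from Mpeg1. The genes of each promoter pair shown above were not each other's nearest of the 7: for Ms4a6c this was Ms4a4c and for Ms4a6b it was Gm8369. Those pairs were shown in part because their responses differed, so nothing is read from this about the promoters. These distances contain the difference on which the genes were chosen.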

How the data were processed

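The submitters' processing notes and the study's methods name FastQC 0.11.7, Trim Galore 0.6.5, STAR 2.6.1a on mm10 and featureCounts (Subread 2.0.1), followed by quantile normalization and voom in limma. The authors deposited 1 file of log2 CPM values per sample. The gene annotation is not given in the sources used here. Values of genes at the lowest level showed that an offset per replicate number had been removed over all 18 libraries, so p-values from fits without a block count too many degrees of freedom.

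Here genes with a value over 0 log2 CPM in at least 3 libraries of an arm were tested, 11494 in the first arm and 11082 in the second. A mean per group was fitted to the log2 values with limma 3.58.1 (R 4.3.3), with a trend of variance on mean and Benjamini-Hochberg adjustment over all tested genes. No pseudocount was added. The script was tested on simulated data. A gene was called where the adjusted p was under 0.05 and the log2 fold change beyond 0.5 in size, the limits in the study's methods. The 7 genes and the lists were chosen with earlier results of these data known. All 7 are named, the other Ms4a and interval genes where tested or called, and of the interferon list the 2 called genes at either end, except that some items are not reported here.

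Deviations from group means of same-numbered samples correlated at 0.51, 0.29 and 0.51 in Tlr9het and 0.20, 0.42 and 0.28 in Tlr779, which were read as pairs. The main fits had no block and did not use the pairing, which entered only the alternative fits with a replicate block. In Tlr997 the correlations were 0.37, 0.083 and 0.025, which leaves the pairing open. Between Tlr9het and Tlr997, whose same-numbered samples are different mice, they were 0.19, -0.09 and -0.11 without and 0.32, -0.04 and 0.11 with CpG. Such correlations are therefore not particular to pairs. Promoters came from RefSeq GRCm38.p6 and transcripts from GENCODE M21.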

Additional observations from a re-analysis of the deposited data

Results flagged for a closer look

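Ms4a1 responded to CpG in opposite directions in the 2 genotypes, down in all 3 Tlr9het and up in all 3 Tlr997 comparisons of same-numbered libraries. The responses differed by 1.16 log2 units (Tlr997 minus Tlr9het). The difference was not tested, because the gene was chosen from the libraries that enter it.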

How the results depend on the processing

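Alternatives changed 1 choice at a time. No log2 fold change of a called gene among the 7 turned its sign under any of them. With no filter on low values, 2 of the 7 genes were called with CL097 in place of 4 (Ms4a6c and Fam111a were lost), 188 of all genes differed between the stimulated genotypes in place of 314, and 0 in place of 2 between the unstimulated ones. With an absolute log2 fold change over 1, 1 of the 7 was called with CL097 and 3 differed between the stimulated genotypes, and over all genes 3993 (6827 at 0.5) were called in the averaged CpG response, 2581 (5134) with CL097 and 74 between the stimulated genotypes. At the limit of 0.5, array quality weights gave 485 between the stimulated genotypes in place of 314. Leaving out 1 library gave 3 to 4 of the 7 in the averaged response, 3 to 4 with CL097, 6 to 7 between the stimulated and 0 between the unstimulated genotypes. Over all genes it gave 6734 to 6898, 4765 to 5184, 186 (without Tlr9het CpG replicate 1; 209 without replicate 3) to 411, and 2 to 4 (4 without unstimulated Tlr997 replicate 2 or 3).

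The replicate block changed no call of the 7 genes: 3, 4 and 0 were called in the averaged CpG, CL097 and unstimulated comparisons, and 6891, 5384 and 2 of all genes. A block by number across genotypes, added after the data were seen, gave 3 and 6849 in the averaged response. The depth of each library is unknown, so counting error could not be separated from other spread.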
